A study of Homo sapiens with 4 samples.

Results

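The genes encoded by the mitochondrial genome were examined in poly(A)+ RNA-seq libraries of human embryonic stem cells. The members were the rows of the expression table whose gene symbol starts with MT-, which gave 37 of 60671 rows. They comprised 13 mRNAs, 2 rRNAs and 22 tRNAs. The 4 libraries, 2 per group, came from H9, an established human embryonic stem cell line, grown in mTeSR, a feeder-free stem cell medium. The control group was labelled simply as control H9. In its text the study names the controls of this comparison mock controls, that is, clones given an empty CRISPR vector. Whether these control libraries came from such clones is not stated in the labels. The other group, called KO+OE here, combined editing of the CFIm25 gene with a lentivirus that expressed 3Flag-CFIm25, and the study used a single edited clone for this rescue. The edit is named KO in the genotype label and KD in the series title. The study describes its edited clones as knockdowns that carry a small N-terminal deletion of CFIm25. Edited cells without re-expression were not analysed here. CFIm25 is a subunit of the cleavage factor that helps choose where nuclear mRNAs are cut and polyadenylated.

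The human mitochondrial genome is a small circle present in many copies per cell, and it encodes subunits of the respiratory chain and of the ATP synthase together with the rRNAs and tRNAs that translate them. Both strands are transcribed as long precursors by a dedicated polymerase, POLRMT. The tRNAs lie between most of the other genes, and their excision releases the rRNAs and most of the mRNAs. A mitochondrial enzyme, MTPAP, then adds short poly(A) tails to most of the mRNAs. This tailing is separate from nuclear 3′ processing, in which CFIm25 takes part.

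The tail also completes part of the genetic message, which matters here because the libraries were captured through poly(A). By the ends of the annotated genes, 7 of the 13 mRNA genes end in a complete stop codon. These count AGA at the end of MT-CO1 and AGG at the end of MT-ND6. The other 6 end in only the first letter or letters of one. The 7 include MT-ATP6, whose last stop letter, at MT:9207, is also the first base of MT-CO3. Which mRNA carries that base cannot be read from the gene ends. The ends of the 6 genes with a partial stop are shown as their last 24 bases, 5′ to 3′. Stop letters that the genome encodes are in capitals. All sequences are from the transcript file of GENCODE release 44, and the start and end of all 37 genes were identical in RefSeq GRCh38.p14.
MT-ND1, MT:4239-4262, plus strand: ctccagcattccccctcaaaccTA
MT-ND2, MT:5488-5511, plus strand: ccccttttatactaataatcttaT
MT-CO3, MT:9967-9990, plus strand: tctccatctattgatgagggtctT
MT-ND3, MT:10381-10404, plus strand: aaaaaggattagactgaaccgaaT
MT-ND4, MT:12114-12137, plus strand: acatcattaccgggttttcctctT
MT-CYB, MT:15864-15887, plus strand: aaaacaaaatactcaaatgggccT

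MT-ND1 supplied TA and the other 5 supplied a single T, so that the remaining A letters come from the tail. By their mean over the libraries, the 6 genes with a partial stop ranged from 2858 to 17357 TPM and the 7 with a complete stop from 3939 to 61369 TPM. The levels of both kinds overlapped. TPM is a length-normalised level: reads are divided by gene length and then expressed as a part of the library's fixed sum.

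Overlapping genes form a further feature of this genome that bears on the values. MT-ATP8 shares its last 46 bases with the start of MT-ATP6, and MT-ND4L shares its last 7 bases with the start of MT-ND4. Each pair is carried on a single mRNA. MT-ATP6 and MT-CO3 also share the base at MT:9207, which is not shown here. The overlaps are shown in capitals, after the 12 bases that precede them.
MT-ATP8, MT:8515-8572, plus strand: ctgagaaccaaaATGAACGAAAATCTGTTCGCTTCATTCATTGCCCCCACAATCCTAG
MT-ND4L, MT:10748-10766, plus strand: aaacctactccaATGCTAA

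The shortest and the longest tRNA gene are shown because the length of these genes accompanies the tRNA result described further on. MT-TS2, a serine tRNA, is 59 bases long, and MT-TL1, a leucine tRNA, is 75 bases long.
MT-TS2, MT:12207-12265, plus strand: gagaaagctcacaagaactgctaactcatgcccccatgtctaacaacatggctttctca
MT-TL1, MT:3230-3304, plus strand: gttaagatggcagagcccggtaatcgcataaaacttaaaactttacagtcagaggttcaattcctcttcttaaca

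The libraries were checked first against their labels. NUDT21, which encodes CFIm25, stood at 160.7 and 152.2 TPM in control against 162.1 and 156.6 TPM in KO+OE (limma log2 fold change 0.03, 95% interval -0.09 to 0.14, adjusted p = 0.980). The table does not separate the edited gene from the transgene, so this level does not check the labels. All 8 markers of pluripotent stem cells were present, at 15.9 to 2212 TPM over the 4 libraries. Of 11 markers of differentiated lineages, 10 stayed below 1 TPM in every library, the exception being GATA6 at 4.35 to 8.39 TPM. Of the markers of tissues rich in mitochondria, ALB was at 0 and MYH6 at 0.30 to 0.50 TPM, whereas TNNT2 reached 5.48 to 7.86 TPM. Of the fibroblast markers, COL3A1 was at 0.00 to 0.02 TPM and COL1A1 at 53.9 to 55.6 TPM. COL1A1 overlapped between the groups and TNNT2 was lower in both KO+OE libraries. The part of such cells in the mitochondrial values was not tested. The labels do not say whether libraries of a group came from separate cultures, so p-values measure only the spread between these libraries, which may be technical.

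Mitochondrial transcripts made up over 20% of every library. Their share of the summed TPM was 20.96% (control 1), 21.08% (control 2), 21.58% (KO+OE 1) and 22.05% (KO+OE 2). The groups did not overlap, and the mean share was 21.0% ± 0.08 (SD, n = 2) in control and 21.8% ± 0.33 (SD, n = 2) in KO+OE, a difference of 0.793 percentage points. The exact two-sided permutation test gave p = 0.333, which is the smallest p that 2 libraries against 2 allow. In bulk RNA, a higher share can come from more mitochondrial RNA per cell or from less of the other RNA, and these cannot be told apart.

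Nearly all of the share was mRNA. The 13 mRNAs took 20.4% and 20.5% of the controls, against 21.0% and 21.5% in KO+OE. The 2 rRNAs, which form the core of the mitochondrial ribosome, took 0.560% and 0.569% of the controls, against 0.577% and 0.589% in KO+OE. The groups did not overlap for either class, and each test again stopped at its smallest possible value (exact permutation p = 0.333). The summed TPM of the mRNAs was 36.4, 36.1, 36.4 and 36.4 times that of the rRNAs in control 1, control 2, KO+OE 1 and KO+OE 2. This ratio overlapped between the groups (exact permutation p = 0.667).

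By complex, the pair of ATP synthase (complex V) subunits took the most of the summed TPM. MT-ATP8 and MT-ATP6 together made up 7.679% and 7.904% in control, against 8.001% and 8.054% in KO+OE. The 3 cytochrome c oxidase (complex IV) subunits made up 6.411% and 6.522% in control, against 6.599% and 6.985% in KO+OE. The 7 NADH dehydrogenase (complex I) subunits, although more numerous, made up 6.03% and 5.80% in control and 6.11% and 6.12% in KO+OE. MT-CYB, the sole mitochondrial subunit of complex III, made up 0.283% of each control, against 0.289% and 0.303% in KO+OE. For each of the 4 complexes both KO+OE libraries lay above both control libraries, and each exact permutation p was 0.333. The lead of complex V holds for TPM only, which divides by length. By TPM times gene length, MT-CO1 of complex IV alone held 23.9% to 24.4% of the mitochondrial total. MT-ATP8 then held 8.41% to 8.83% and MT-ATP6 7.69% to 7.77%.

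**Figure D1:**
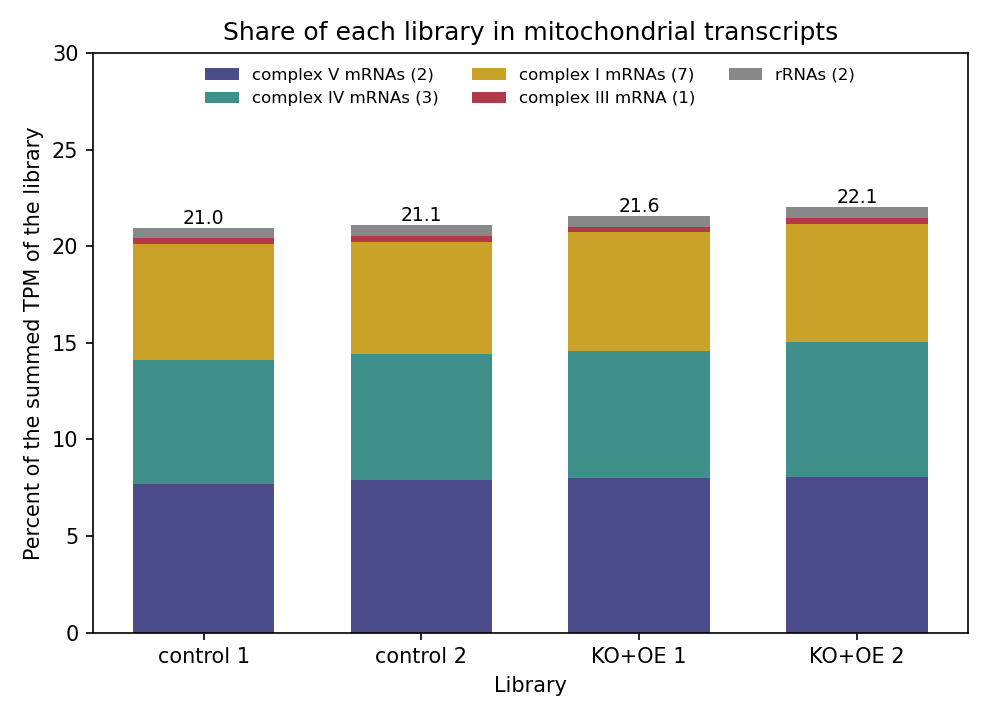
Stacked bars give the percent of the summed TPM of each of the 4 libraries that came from the mitochondrial mRNAs of complexes V, IV, I and III and from the rRNAs, starting at 0, with the total printed above each bar. The totals run from 21.0% and 21.1% in control to 21.6% and 22.1% in KO+OE, and complexes V, IV and I make up most of every bar.

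The order of the transcripts was nearly the same in every library. Of the 15 members with a value above 0, 13 held one rank in all 4 libraries, and the other two, MT-ND1 and MT-ND6, changed places. Of the 14 pairs of neighbours in the order, 12 had ranges that did not overlap over the 4 libraries. The highest member was 72.3 times the lowest by mean TPM, and the highest mRNA was 21.5 times the lowest mRNA. Each member varied little between libraries, with a coefficient of variation over the 4 libraries of 1.57% to 4.61%.

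MT-ATP8, a small subunit of the membrane part of the ATP synthase (ENSG00000228253, MT:8366-8572), was the highest row of the whole table in every library. It stood at 59515 and 61673 TPM in control against 62083 and 62204 TPM in KO+OE. This one gene accounted for 6.03% to 6.30% of each library and for 28.6% to 29.6% of the mitochondrial total. Its lead over the next member, MT-CO2, was 2.37-fold to 2.53-fold.

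The 3 catalytic core subunits of cytochrome c oxidase followed. MT-CO2, which receives electrons from cytochrome c, stood at 24232 and 24420 TPM in control against 24873 and 26274 TPM in KO+OE. MT-CO1, which holds the oxygen-reducing centre, stood at 22400 and 22904 TPM in control against 23004 and 24174 TPM in KO+OE. MT-CO2 exceeded MT-CO1 by only 1.07-fold to 1.09-fold, yet did so in all 4 libraries. MT-CO3, the remaining core subunit, stood at 16632 and 17046 TPM in control against 17258 and 18493 TPM in KO+OE.

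MT-ATP6, which forms part of the proton channel of the ATP synthase, was close behind. Its values were 16265 and 16341 TPM in control against 16895 and 17287 TPM in KO+OE. MT-CO3 was higher than MT-ATP6 in each library, by 1.02-fold to 1.07-fold, but the ranges of both genes over the 4 libraries overlapped, and their order is not resolved beyond that spread.

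The complex I subunits were spread over the middle and lower part of the order. These subunits sit in the membrane arm of the enzyme, which pumps protons. MT-ND4L stood at 14048 and 13500 TPM in control against 14335 and 13465 TPM in KO+OE. MT-ND3 stood at 13463 and 12108 TPM in control against 12878 and 13142 TPM in KO+OE. For both genes the control and KO+OE libraries overlapped, and MT-ND4L was above MT-ND3 in each library.

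MT-ND4 and MT-ND2, a pair of antiporter-like subunits, came next and had groups apart. MT-ND4 stood at 9107 and 9101 TPM in control against 9587 and 9917 TPM in KO+OE. MT-ND2 stood at 7786 and 7696 TPM in control against 8146 and 8321 TPM in KO+OE. The KO+OE libraries were the higher pair for both.

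MT-ND1 and MT-ND6 could not be placed in order. MT-ND1, at the junction with the peripheral arm, stood at 5637 and 5442 TPM in control against 5700 and 5916 TPM in KO+OE. MT-ND6, the only mRNA encoded on the minus strand, stood at 5679 and 5504 TPM in control against 5695 and 5594 TPM in KO+OE. MT-ND6 was the higher in the control libraries and MT-ND1 in the KO+OE libraries, with a ratio of 0.989 to 1.06. Whether the counting used the strand is not stated in the sources used here, so reads from the precursor that crosses MT-ND6 on the other strand cannot be told apart from its own. The libraries were also selected for poly(A), and the part of tailing in the MT-ND6 level was not tested.

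The lowest members included both rRNAs. MT-RNR2, the large rRNA, stood at 4694 and 4782 TPM in control against 4856 and 4929 TPM in KO+OE. MT-RNR1, the small rRNA, stood at 834.6 and 831.6 TPM in control against 842.8 and 885.1 TPM in KO+OE, below every mRNA. MT-RNR2 was 5.57-fold to 5.76-fold above MT-RNR1, and both were read from libraries selected for poly(A), so these values do not give the amount of rRNA in the cells.

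Between the rRNAs in level lay MT-ND5, the longest of the mitochondrial complex I genes, and MT-CYB, the cytochrome b of complex III. MT-ND5 stood at 3805 and 3905 TPM in control against 4010 and 4038 TPM in KO+OE. MT-CYB, the lowest mRNA, stood at 2792 and 2797 TPM in control against 2854 and 2992 TPM in KO+OE. Both genes lie at the far end of the plus-strand precursor.

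Read along the genome, the plus-strand values were highest in the middle. Each step from MT-RNR1 up to MT-ATP8 was a rise in all 4 libraries, the steepest among the mRNAs being from MT-ND2 to MT-CO1, at 2.82-fold to 2.98-fold. After MT-ATP8 the next gene, MT-ATP6, was at 0.265 to 0.278 of its level, and MT-CO3 was then 1.02-fold to 1.07-fold above MT-ATP6. From MT-CO3 to MT-CYB each downstream gene was lower than the one before it in every library, except that MT-ND4L exceeded MT-ND3. The step from MT-ND4 to MT-ND5 was the largest of these, to 0.407 to 0.429 of the level. MT-ND6, on the other strand, was 1.39-fold to 1.49-fold above MT-ND5, which it abuts.

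**Figure D2:**
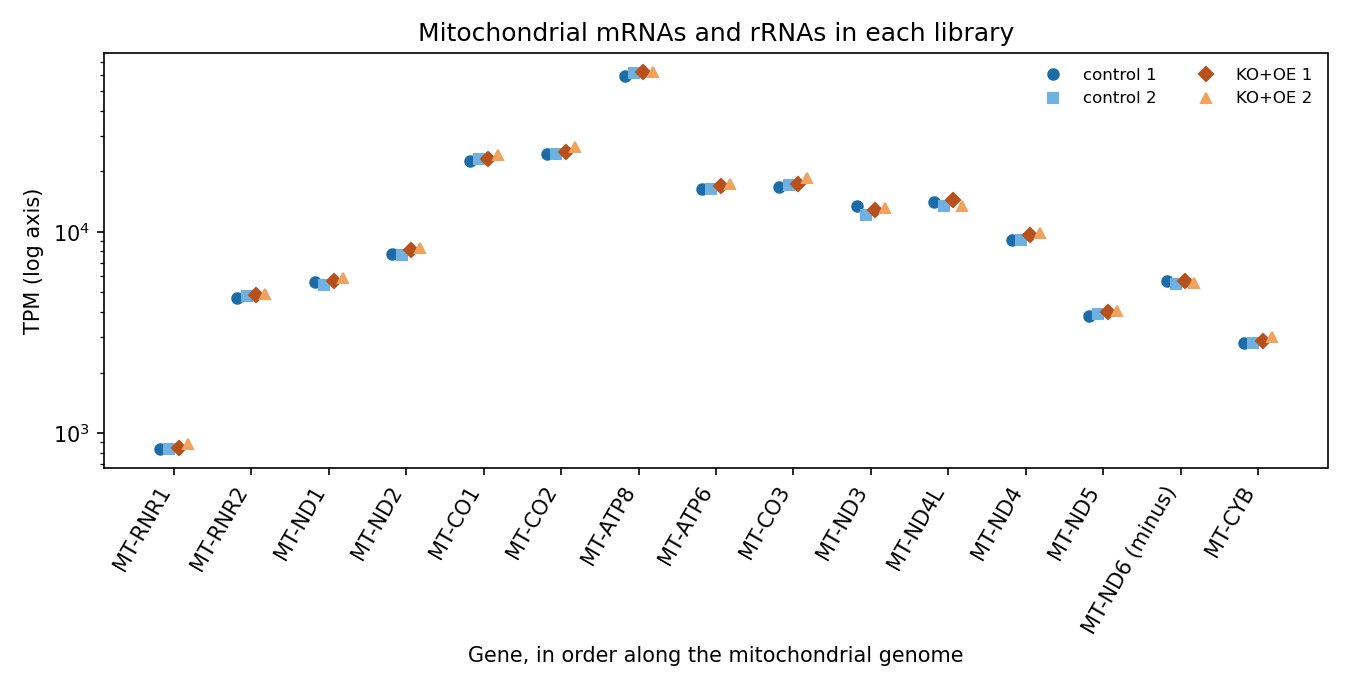
Each point is the TPM of a gene in one library (log axis), for the 13 mRNAs and 2 rRNAs in the order in which they lie along the mitochondrial genome, with the 4 libraries side by side. The 4 points of a gene lie close together compared with the whole span of levels. That span runs from MT-RNR1 at 832 to 885 TPM up to MT-ATP8 at 59515 to 62204 TPM. The ranges of MT-CO3 and MT-ATP6 overlap, as do those of MT-ND1 and MT-ND6.

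The lead of MT-ATP8 over MT-CO1, MT-CO2 and MT-CO3 held in TPM but not in TPM times gene length. At 207 bases MT-ATP8 is the shortest mRNA gene, and MT-ATP6, which lies on the same mRNA, has 681 bases. The TPM ratio of MT-ATP8 to MT-ATP6 was 3.66, 3.77, 3.67 and 3.60 in control 1, control 2, KO+OE 1 and KO+OE 2. With TPM multiplied by the full gene length, the ratio was 1.09 to 1.15, so MT-ATP8 remained above MT-ATP6. This product, called bases below, gives the share of sequenced bases only if the division used that same length. The other pair on a shared mRNA differed likewise in TPM, with MT-ND4L at 1.543, 1.483, 1.495 and 1.358 times MT-ND4. Its ratio by bases was 0.293 to 0.333. Neither TPM ratio separated the groups (exact permutation p = 0.667 for each). The way reads in the shared bases were assigned, and the length used in the division, are not stated in the sources used here.

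By TPM times gene length the order changed. MT-CO1 came first with 23.9% to 24.4% of the mitochondrial sum of this product. MT-CO2 followed with 11.5% to 11.7% and MT-CO3 with 9.08% to 9.47%. MT-ATP8 fell to rank 4 or 5, where it changed places with MT-ND4. MT-ND4L moved from rank 6 by TPM to rank 12 by bases. MT-RNR1 remained last with 0.543% to 0.554%, and both rRNAs together held 5.57% to 5.70% of this sum. Over the 13 mRNAs, length and TPM had a Spearman rank correlation of -0.45 in the control libraries and -0.42 in the KO+OE libraries, a description only, since length enters the TPM itself.

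**Figure D3:**
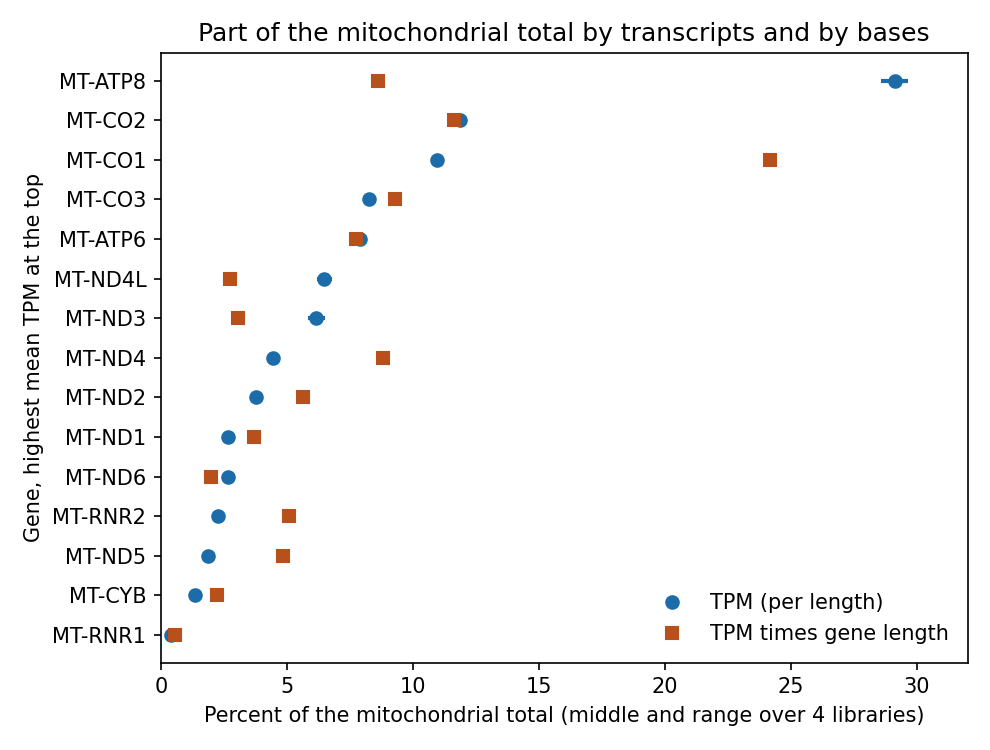
For each of the 15 members above 0, circles give its percent of the mitochondrial TPM and squares its percent of TPM times gene length, placed at the middle of the range over the 4 libraries, with the range as a line. MT-ATP8 holds 28.6% to 29.6% by TPM and 8.41% to 8.83% by TPM times gene length. MT-CO1 holds 10.8% to 11.1% by TPM and 23.9% to 24.4% by TPM times gene length.

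The tRNAs could not be compared with the mRNAs. All 22 tRNAs were listed at 0 in all 4 libraries, which is 88 of 88 values, whereas the median mRNA stood at 13463 and 12108 TPM in control against 12878 and 13142 TPM in KO+OE. The 14 tRNAs of the plus strand and the 8 of the minus strand were alike in this. The tRNA genes are 59 to 75 bases long. Of all 1112 rows whose longest annotated transcript had at most 80 bases, 2 had a value above 0 in any library (0.180%), namely AC008013.1 and HLA-Z, against 72.9% of the rows with more than 1000 bases. A listed 0 is therefore shared by almost every gene of this length. No fold against the tRNAs is given, because the table holds no counts to set a limit. The libraries were also selected for poly(A). The parts of gene length and of this selection in the 0 values cannot be told apart here and were not tested.

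**Figure D4:**
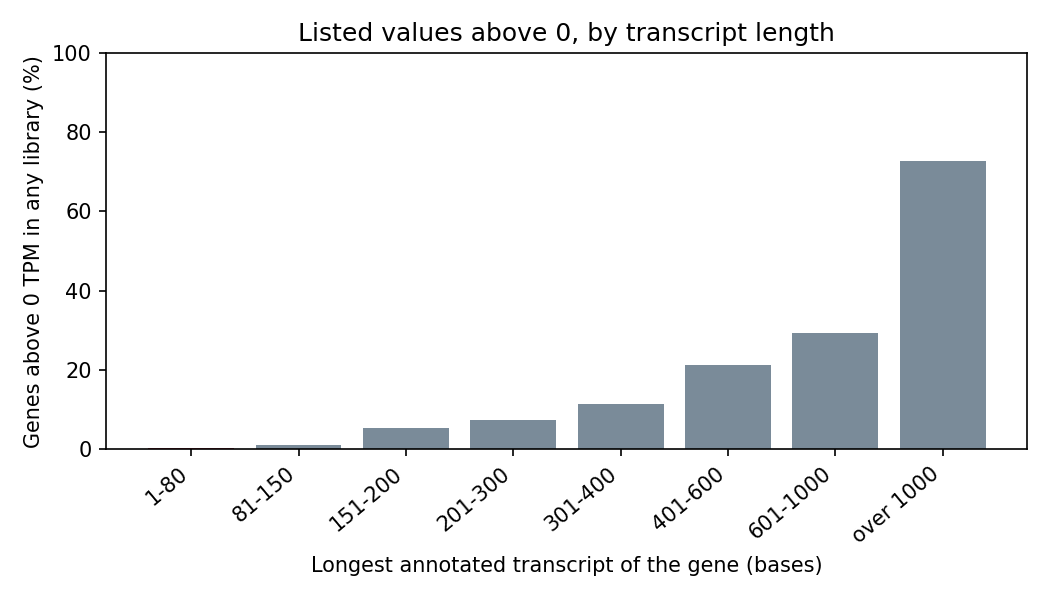
Bars give the percent of genes with a value above 0 TPM in at least 1 library, by the length in bases of the longest annotated transcript. The share is 0.180% for genes of up to 80 bases, the class that holds all 22 mitochondrial tRNAs, and 72.9% for genes over 1000 bases.

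KO+OE and control were compared gene by gene with limma on log2(TPM + 1), adjusted over all 12319 genes tested. No member passed an adjusted p of 0.05, where 0.00812% of all genes did, and the adjusted p of the 15 members lay between 0.928 and 0.990. At an unadjusted p under 0.05 there were 4 members, all higher in KO+OE. Of all genes tested, 5.33% had such a p, and 2.26% had it with a higher level in KO+OE. All 15 members tested had a higher mean in KO+OE, while 45.5% of all genes did. The log2 fold changes ran from 0.01 to 0.10 with a median of 0.06, beside a median of -0.01 over all genes tested. Without KO+OE 2 the median of the 13 mRNAs was 0.036, against 0.064 with all 4 libraries. The members are cut from shared precursors and scaled together, so they are not 15 independent measurements.

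In 12 of the 15 members both KO+OE libraries lay above both control libraries, which held for 14.5% of all genes tested, and in no member did both lie below, as they did in 19.6% of all genes. Of the 117 other genes whose mean reached 1000 TPM, 10.3% had this pattern. The 3 members with overlapping groups were MT-ND4L, MT-ND3 and MT-ND6. Each library was also rescaled so that the genes outside the mitochondrial genome had the same total. The members apart were then again 12, and those with an unadjusted limma p under 0.05 were 7. The share of all genes under this rescaling is not given here, so these counts are not read as particular to the members.

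The largest difference was that of MT-ND4, at a log2 fold change of 0.10 (SE 0.02, 95% interval 0.04 to 0.16, limma adjusted p = 0.928), with a mean TPM 7.12% higher in KO+OE. MT-ND2 had a log2 fold change of 0.09 (95% interval 0.03 to 0.14), MT-ATP6 of 0.07 (0.02 to 0.12) and MT-ND5 of 0.06 (0.0033 to 0.12), and these 4 were the members with an unadjusted p under 0.05. MT-CO3 had the highest upper bound, with an interval of -0.01 to 0.18 around 0.09, but leaving out KO+OE 2 took its estimate to 0.036. At the other end, MT-ND4L had a log2 fold change of 0.01 (95% interval -0.08 to 0.11), MT-ND6 of 0.01 (-0.05 to 0.08) and MT-ND3 of 0.03 (-0.11 to 0.16). Across all 15 members the intervals of single genes reached from a change of -7.15% to one of 13.4%.

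**Figure D5:**
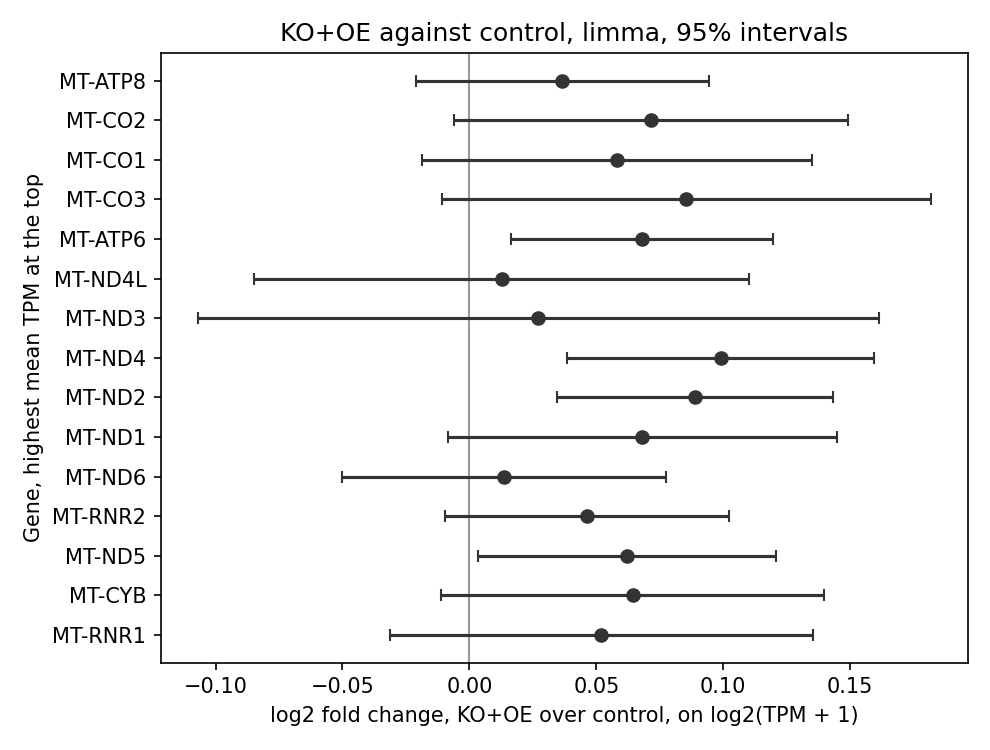
Points give the limma log2 fold change of KO+OE over control on log2(TPM + 1) for the 15 members above 0, and bars the 95% interval from 2 libraries per group. All points lie between 0.01 and 0.10, and 4 intervals, those of MT-ATP6, MT-ND4, MT-ND2 and MT-ND5, do not reach 0 before adjustment.

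In absolute size, whatever its direction, the difference between groups was close to that within groups for KO+OE 1 and larger for KO+OE 2. The mean absolute log2 difference over the 15 members was 0.04 from control 1 to control 2 and 0.05 from KO+OE 1 to KO+OE 2. Between groups it was 0.04 from either control library to KO+OE 1 and 0.09 and 0.08 from control 1 and control 2 to KO+OE 2. KO+OE 2 was above KO+OE 1 in 13 of the 15 members, and control 2 above control 1 in 8. Between groups, KO+OE 1 was above control 1 in 14 members and above control 2 in 15. KO+OE 2 was above control 1 in 12 members and above control 2 in 14. With 1 library left out, the median log2 fold change of the 13 mRNAs was 0.036 without KO+OE 2 and 0.071 without control 2. It was 0.065 without control 1 and 0.094 without KO+OE 1, against 0.064 with all 4 libraries. The estimate thus depended most on which KO+OE library was kept.

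Copies of mitochondrial genes in the nuclear genome can take reads that belong to the members. The table had 408 rows of such copies, of which 34 had a value above 0, and all copies together held 3702 to 3880 TPM. MTCO1P12, which was 98.6% identical to MT-CO1 over 1543 aligned bases, stood at 2720 and 2730 TPM in control against 2806 and 2819 TPM in KO+OE, which is 11.7% to 12.2% of MT-CO1. MTATP6P1, 98.5% identical to MT-ATP6, stood at 872.1 and 903.7 TPM in control against 917.4 and 961.2 TPM in KO+OE, or 5.36% to 5.56% of MT-ATP6. The other 3 copies whose mean reached 10 TPM, MTND6P3, MTRNR2L1 and MTND2P28, were below 1% of their parent gene. How reads were divided between copies and members is not stated in the sources used here, so the levels of MT-CO1 and MT-ATP6 are uncertain. With the copies added to the parent genes the median log2 fold change of the mRNAs was again 0.06.

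The mitochondrial subunits stood far above the nuclear-encoded subunits of the same complexes. In complex I the 7 mitochondrial mRNAs ranged from 3805 to 14335 TPM. The 38 nuclear genes grouped with it by their NDUF symbols had a median of 154.1 to 173.1 TPM by library. The highest of them, NDUFA13, reached 1199 TPM. In complex IV the 3 mitochondrial mRNAs stood at 16632 to 26274 TPM. The 16 nuclear genes, of which 12 had a mean of at least 1 TPM, had a median of 144.0 to 146.3 TPM. COX4I1 was the highest of them, at 974.6 to 1010 TPM. In complex V the median of the 17 nuclear genes was 179.1 to 195.7 TPM, and the highest, ATP5MF, reached 1312 TPM.

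In complex III, MT-CYB stood at 2792 to 2992 TPM, and UQCRH, the highest of 9 nuclear genes, at 517.2 to 556.6 TPM. In each of the 4 complexes, no nuclear subunit had a mean TPM above that of the lowest mitochondrial subunit of that complex. This compares levels per length of RNA, and the symbols alone chose the 80 nuclear genes.

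The nuclear genes that make and process mitochondrial RNA were examined with a list of 52 genes, of which 44 passed the filter on low values. None passed an adjusted p of 0.05 in limma, and 3 of the 44 had an unadjusted p under 0.05, all lower in KO+OE. Among all genes tested, 5.33% had such a p and 3.06% had it with a lower level in KO+OE. With only 3 genes, this count is not read as particular to the list. Of the 44, 11 had a higher and 33 a lower mean in KO+OE, with a median log2 fold change of -0.03. Over all genes tested, 45.5% had a higher mean in KO+OE and the median was -0.01.

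POLRMT, the polymerase that transcribes the mitochondrial genome, stood at 118.1 and 119.8 TPM in control against 108.8 and 113.3 TPM in KO+OE. Its groups did not overlap, but the difference did not pass the test (log2 fold change -0.10, 95% interval -0.20 to 0.01, limma adjusted p = 0.931). TFAM, which packages the genome and helps start transcription, was low, at 1.25 and 1.74 TPM in control against 0.69 and 0.90 TPM in KO+OE (limma adjusted p = 0.931). MTPAP, the poly(A) polymerase of mitochondria, was at 0.53 to 0.77 TPM and was not tested.

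The pair that stabilises mitochondrial mRNAs was unequal in level. SLIRP stood at 212.0 and 210.0 TPM in control against 199.3 and 222.6 TPM in KO+OE, and the groups overlapped. LRPPRC, its partner, stood at 3.65 and 3.56 TPM in control against 3.02 and 3.54 TPM in KO+OE. Neither passed the test (limma adjusted p = 0.996 for SLIRP and 0.968 for LRPPRC).

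The smallest unadjusted p of the list was that of TRUB2, a pseudouridine synthase of mitochondrial RNA. It stood at 17.1 and 19.2 TPM in control against 14.9 and 13.9 TPM in KO+OE (log2 fold change -0.31, 95% interval -0.54 to -0.08, limma adjusted p = 0.928). PUS1, another pseudouridine synthase, stood at 29.4 and 25.9 TPM in control against 23.5 and 20.3 TPM in KO+OE. SSBP1, which binds single-stranded mitochondrial DNA, stood at 86.7 and 88.8 TPM in control against 80.9 and 80.1 TPM in KO+OE. The choice to name PUS1 and SSBP1 followed from their values.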

How the data were processed

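Poly(A)+ RNA of 4 H9 libraries, 2 control and 2 KO+OE, was sequenced as paired reads. The authors deposited one table of 60671 genes whose header names no unit. The deposited values were read as TPM, because they hold decimals and each column sums to between 986853 and 987078. The submitters' processing notes name HISAT2, featureCounts, Subread and DESeq2 and the build hg38, of which DESeq2 served the authors for calling differential expression, and which tool made this table is not given in the sources used here. The table holds no counts, so depth and counting error are unknown. Columns of samples outside the series numbered 0.

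Values were put on log2(TPM + 1), a scale that understates changes of low genes. Genes averaging at least 1 TPM, 12319 in all, entered a two-sided limma 3.58.1 fit (R 4.3.3; lmFit, then eBayes with trend) on group alone, with Benjamini-Hochberg adjustment over all of them. The fit was tested on simulated data with independent genes and with larger changes than those of the members. That test does not cover changes as small as theirs. Shares and ratios were compared by exact permutation over libraries (scipy 1.17.1). All 37 members were named, together with NUDT21, POLRMT, TFAM, LRPPRC, SLIRP, MTPAP, the listed nuclear gene with the smallest unadjusted p, and the 5 nuclear copies averaging at least 10 TPM. Sequences, lengths and positions are from GENCODE release 44, in which 96.7% of identifiers were found. Identity to copies was computed with Biopython 1.88. The members and lists were chosen with earlier results of these data known.

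Alternatives changed the pseudocount (0.1 or 5), the filter (none, or 5 TPM on average), the scaling (median-ratio, quantile, or to the genes outside the mitochondrial genome) and the model (eBayes without trend, or a block for replicate number), or dropped 1 library at a time. With 3 libraries, the lone library was assumed to vary like the other group. Adding the copies to their parent genes, leaving MT-ATP8 out of the share, the rescaled count of genes apart and leaving out libraries from the mRNA to rRNA ratio were chosen after seeing the data.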

Additional observations from a re-analysis of the deposited data

How the results depend on the processing

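The number of members called was 0 under every alternative tried, and so was that of the listed nuclear genes of mitochondrial RNA synthesis and processing. The lowest adjusted p of a member under any alternative was 0.475. Of 210 refits of single members, 198 kept the direction, 7 gave 0 and 5 turned it. The 7 zeros came from quantile normalization, which gives equal values to genes that hold one rank in every library, and it set the median log2 fold change of the mRNAs to 0, against 0.06. Quantile normalization also turned MT-ND6 (-0.0034). Without control replicate 2, MT-ND4L, MT-ND3 and MT-ND6 turned, and without KO+OE replicate 1 MT-ND4L did. Over the libraries left out in turn, the log2 fold change ran from -0.032 to 0.058 for MT-ND4L, from -0.049 to 0.104 for MT-ND3, from -0.0090 to 0.036 for MT-ND6 and from -0.012 to 0.066 for NUDT21, and the group difference in the log2 ratio of mRNA to rRNA ran from -0.00055 to 0.014. The cause was not tested.

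The labels share replicate numbers between the groups. Over the genes tested as a whole, same-numbered libraries did not deviate together (correlation of deviations -0.05). This single value cannot show whether they were handled together. With the replicate number as a block, 0 members were called, 7 had an unadjusted p under 0.05, and the median log2 fold change of the mRNAs was again 0.06. No filter left 2 members and eBayes without trend 0 members with an unadjusted p under 0.05. The shares of all genes under the block and these settings are not given here, so such counts are not read as particular to the members. Median-ratio scaling and scaling to the genes outside the mitochondrial genome each moved the median of all genes by 0.01 (log2). The alternatives planned for the tRNA to mRNA ratio gave no value, because all tRNAs were listed at 0. The depth behind the TPM values is unknown, and 2 libraries per group limit every test.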
